A study of Mus musculus with 13 samples.

Results

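miR-132 and miR-212 are neuronal miRNAs whose hairpins lie next to each other in the mouse genome. Their members were taken as every row of the deposited counts whose hairpin was mmu-mir-132 or mmu-mir-212, which gave 4 pairs of a hairpin and a mature miRNA out of 1514 pairs listed over 13 libraries. These 4 are the 5p and 3p arms of each hairpin, and all 4 were counted in every library and passed the filter on low counts in each comparison. The counts came from small RNA sequencing of the hippocampus and the prefrontal cortex (PFC). FVB/N mice, the wild type parent strain, gave 3 hippocampal and 3 PFC libraries. TgR mice, which carry human AChE-R (the readthrough splice variant of acetylcholinesterase, labelled hACHE-R overexpression) on the FVB/N strain, gave 3 hippocampal and 4 PFC libraries. The transgene is driven constitutively by a minimal promoter-enhancer of cytomegalovirus, and the study states that expression directed in this way depends on neuronal activity. By the study's labelling, the protein was in excess in subsets of neurons of several regions. No drug is named for the sequenced mice, and their age and sex are not given in the sources used here.

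Acetylcholinesterase (AChE) ends cholinergic transmission by breaking down acetylcholine. The pri-miRNA of miR-212 and miR-132 is transcribed in neurons in response to activity, through the transcription factor CREB and signals such as BDNF, and its 3p arms are known for acting on dendrite growth and synaptic plasticity. miR-132 binds AChE mRNA, by which it is known to link stress and inflammation to cholinergic signaling. A miRNA recognizes its targets mainly through the seed, bases 2 to 8 counted from its 5′ end.

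The mature sequences, which RefSeq gives for 4 of 4 members on GRCm38.p6, are shown because the shared seed is what makes these hairpins one family. The seed is in capitals.
miR-132-3p: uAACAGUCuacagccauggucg
miR-212-3p: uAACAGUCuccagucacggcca
miR-132-5p: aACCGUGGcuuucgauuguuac
miR-212-5p: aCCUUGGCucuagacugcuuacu
The 3p arms had the same seed, AACAGUC, and no other of the 1679 mouse mature miRNA names in the same table held it. They matched at 17 of 22 positions. Counted from the 5′ end, with the base of miR-132-3p first, the 5 differences were A10C, C14U, U17C, U20C and G22A, all outside the seed. The 5p arms had different seeds, and no other mouse miRNA in the table shared either one.

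The hairpins are given with both mature arms in capitals, to show from which side of the stem each arm is cut.
Mir212: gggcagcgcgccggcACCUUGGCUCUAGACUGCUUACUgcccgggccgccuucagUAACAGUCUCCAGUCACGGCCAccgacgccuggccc
Mir132: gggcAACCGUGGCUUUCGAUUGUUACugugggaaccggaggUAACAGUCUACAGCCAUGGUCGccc
Mir212 lies on the plus strand of GRCm38 at chr11:75173388-75173478 and Mir132 at chr11:75173682-75173747, with 203 bases between them. GENCODE M21 places both in the intron between exons 1 and 2 of the non-coding gene 1700016P03Rik, on the same strand. The nearest other hairpin in the RefSeq table, Mir22, was 289969 bases away.

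Letters that pair with the seed of both 3p arms were looked for in the 9 mouse Ache transcripts of GENCODE M21, on the transcript strand. The complement of bases 2 to 8 (GACTGTT) was in 0 of the 8 protein-coding transcripts, and the complement of bases 2 to 7 followed by A (ACTGTTA) was in 3 of them. In the other protein-coding transcripts, of 254 to 438 bases, the coding part runs to the last base, so they hold no annotated 3′ UTR. The ACTGTTA match lay in the 3′ UTR at chr5:137294449-137294455 on the plus strand. It is printed because Ache is the known target of miR-132, with the match in capitals.
Ache 3′ UTR: tcgcccctctgggccgccaataaACTGTTA
Ache retained intron: actccttgataagccctgggcaaGACTGTT
The other match, GACTGTT, was in the non-coding transcript of Ache with a retained intron, at chr5:137289949-137289955. Its label above names the type of this transcript, and whether the match lies in the retained intron itself was not looked up. Which of the 9 transcripts, if any, stands for AChE-R was not looked up either. The motifs overlap in the letters ACTGTT. Among all protein-coding mouse transcripts, 11.0% held ACTGTTA, 12.4% held GACTGTT and 19.2% held at least 1 of them. A match is a description of these letters, not a binding site. AChE mRNA was not read by this assay, and the human transgene was not searched.

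The shallowest library, TgR PFC replicate 2, held 8769851 counts and the deepest, TgR hippocampus replicate 1, held 18385985, and 3 counts, the smallest number told from 0, stood for 0.158 to 0.313 CPM. CPM is the count divided by the library size in megareads, with sizes scaled by edgeR's TMM method over all 13 libraries. The 6 neuronal markers of a fixed list were abundant in both regions, with miR-9-5p at 65265 CPM and miR-124-3p at 4375 CPM on average in FVB/N hippocampus, and their summed level lay between 175046 and 281928 CPM in every library. Small RNA counts hold no AChE-R mRNA, so the genotype labels could not be checked on the transgene. In the hippocampus the choroid plexus and ciliated cell markers, summed, ranged from 958 to 1341 CPM in FVB/N and from 1613 to 5867 CPM in TgR mice, 5 of the 8 being higher in TgR mice (1.93% of all tested pairs were). The 5 blood cell markers summed to 1086 to 1212 CPM in FVB/N and to 534 to 698 CPM in TgR hippocampus, 1 of them (miR-451a) being lower (1.52% of all tested pairs were). The vessel markers summed to 10277 to 18513 CPM over all libraries, and 0 of the 3 passed the threshold in any comparison. Of all tested pairs, 0.137% to 7.99% passed, depending on the comparison.

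The 4 arms took between 0.362% and 0.939% of the counts of a library. miR-132-5p was the most abundant arm, the mean of its group ranking 26 of 1182 mature miRNAs in FVB/N PFC and 39 of 1190 in FVB/N hippocampus. Next came miR-132-3p, at rank 43 in FVB/N PFC and 65 in FVB/N hippocampus, and miR-212-5p at 57 and 81. The scarcest arm was miR-212-3p, at rank 187 in FVB/N PFC and 238 in FVB/N hippocampus. Mature miRNAs differ little in length, but small RNA libraries made by ligation do not capture all of them equally, so levels of different miRNAs are comparable only roughly.

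miR-132-3p, the arm known to act on AChE mRNA, separated the brain regions in FVB/N mice. Its level in FVB/N hippocampus was 903, 845 and 1025 CPM in replicates 1 to 3. In FVB/N PFC it was 2279, 1936 and 1771 CPM. Every FVB/N hippocampal library was thus below every FVB/N PFC library. In TgR hippocampus miR-132-3p was at 1036, 1496 and 910 CPM in replicates 1 to 3, and in TgR PFC at 1705, 1924, 1587 and 1360 CPM in replicates 1 to 4. TgR hippocampus replicate 2 lay above the lowest TgR PFC library, so these groups overlapped. Ordered by mean, miR-132-3p stood at 924 ± 91.6 CPM in FVB/N hippocampus, 1148 ± 309 CPM in TgR hippocampus, 1644 ± 235 CPM in TgR PFC (SD, n = 4) and 1996 ± 259 CPM in FVB/N PFC (SD, n = 3 for the other groups). Each group of this order overlapped with its neighbour in at least 1 library.

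miR-132-5p, the other strand of the same hairpin, was higher than miR-132-3p in each of the 13 libraries. It was at 2132, 1944 and 2961 CPM in FVB/N hippocampus and at 2683, 3478 and 2100.2 CPM in TgR hippocampus. In the PFC it was at 4129, 5716 and 4616 CPM in FVB/N and at 5027, 5372, 5214 and 4856 CPM in TgR mice. All 7 PFC libraries lay above all 6 hippocampal libraries, whereas the genotypes overlapped within each region. The share of all pairs that separate in this way over both genotypes was not counted. The group means were 2346 ± 541 CPM in FVB/N hippocampus, 2754 ± 692 CPM in TgR hippocampus, 4820.2 ± 813 CPM in FVB/N PFC and 5117 ± 224 CPM in TgR PFC (SD, n = 4 for TgR PFC and 3 for the others).

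miR-212-3p shares its seed with miR-132-3p and was far scarcer, as its rank shows. It was at 46.9, 46.0 and 41.2 CPM in FVB/N hippocampus and at 47.8, 81.3 and 41.9 CPM in TgR hippocampus. In FVB/N PFC it was at 147, 73.6 and 69.2 CPM, and in TgR PFC at 81.5, 100.1, 76.8 and 62.5 CPM. FVB/N PFC replicate 1 had the highest miR-212-3p of all libraries, far from the other FVB/N PFC libraries, and TgR hippocampus replicate 2 was again above the lowest PFC library. The means were 44.7 ± 3.08 CPM in FVB/N hippocampus, 57.0 ± 21.2 CPM in TgR hippocampus, 80.2 ± 15.5 CPM in TgR PFC (SD, n = 4) and 96.4 ± 43.4 CPM in FVB/N PFC (SD, n = 3 for the other groups).

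miR-212-5p, whose seed no other miRNA shares, was at 742, 533 and 649 CPM in FVB/N hippocampus and at 725, 946 and 672 CPM in TgR hippocampus. In FVB/N PFC it was at 867, 1411 and 1616 CPM, and in TgR PFC at 1431, 1203, 1289 and 1379 CPM. FVB/N PFC replicate 1, the highest library for both 3p arms, was the lowest PFC library for both 5p arms. For miR-212-5p it lay below TgR hippocampus replicate 2. The means were 641 ± 105 CPM in FVB/N hippocampus, 781 ± 145 CPM in TgR hippocampus, 1298 ± 387 CPM in FVB/N PFC (SD, n = 3 each) and 1326 ± 101 CPM in TgR PFC (SD, n = 4).

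**Figure D1:**
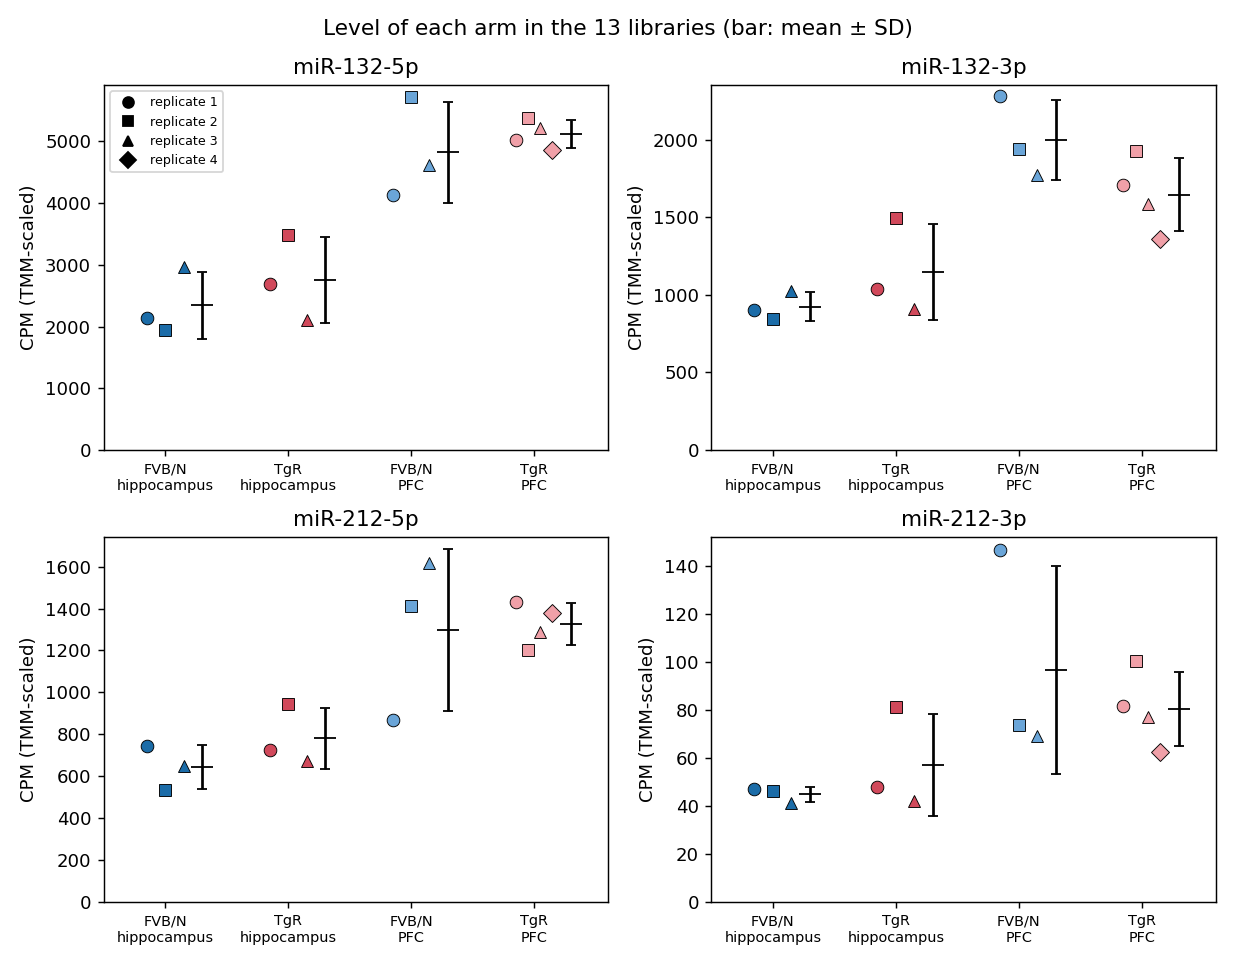
Level of each arm in CPM (vertical axis, linear, from 0) in the 13 libraries by group, with 1 point per library, its shape giving the replicate number, and a bar for the mean ± SD. For miR-132-5p all 7 PFC libraries lie above all 6 hippocampal libraries, a separation that was not counted over the other pairs. FVB/N PFC replicate 1 is highest for miR-212-3p at 147 CPM and lowest among PFC libraries for miR-212-5p at 867 CPM.

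Hippocampus and PFC were compared within each genotype, over all 13 libraries in 4 groups. In FVB/N mice all 4 arms were lower in the hippocampus, and by about the same size. The log2 fold change of hippocampus over PFC was -1.11 for miR-132-3p (standard error 0.19, adjusted p = 0.0047, edgeR), a level 2.16-fold lower. For miR-132-5p it was -1.04 (standard error 0.19, adjusted p = 0.0059, edgeR), and for miR-212-5p it was -1.02 (standard error 0.21, adjusted p = 0.0099, edgeR). miR-212-3p differed by -1.11 with a wider standard error of 0.30 (adjusted p = 0.046, edgeR), and this call was lost on leaving out any single FVB/N library except PFC replicate 3. Without FVB/N PFC replicate 1 the difference was -0.72, the smallest of these, with adjusted p = 0.21 (edgeR). Of 751 pairs tested, 5.33% passed the threshold of 0.05 on the adjusted p in this comparison, and 2.13% passed as lower in the hippocampus, against 4 of the 4 arms. Groups that did not overlap, with the hippocampus lower, were found for 9.45% of the tested pairs and for 4 of the 4 arms. By unadjusted p, miR-132-3p ranked 5 and miR-132-5p 10 among the 751 pairs. The 4 arms are not independent of each other, as they come from neighbouring hairpins and the same libraries.

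In TgR mice the 5p arms were lower in the hippocampus and the 3p arms did not pass the threshold. The difference on the log2 scale was -0.89 for miR-132-5p (95% interval -1.28 to -0.50, adjusted p = 0.0067, edgeR) and -0.76 for miR-212-5p (95% interval -1.19 to -0.34, adjusted p = 0.028, edgeR). Both 5p arms were lower in 3 of 3 hippocampal libraries than in any TgR PFC library. miR-132-3p was at -0.52 (standard error 0.17, 95% interval -0.89 to -0.15, adjusted p = 0.088, edgeR) and miR-212-3p at -0.49 (standard error 0.28, 95% interval -1.10 to 0.11, adjusted p = 0.35, edgeR). In this comparison 7.99% of the 751 pairs passed and 4.13% passed as lower in the hippocampus, against 2 of the 4 arms. Groups that did not overlap, with the hippocampus lower, made up 12.4% of the pairs and 2 of the 4 arms. Without TgR hippocampus replicate 2, the library with the highest level of all 4 arms in its region, miR-132-3p passed with a log2 fold change of -0.73 (adjusted p = 0.023, edgeR). The call of miR-132-5p was lost without TgR hippocampus replicate 1 or 3, at adjusted p = 0.051 and 0.052 (edgeR). That of miR-212-5p was lost without TgR hippocampus replicate 1 or 3 and without TgR PFC replicate 1, 3 or 4, at adjusted p between 0.052 and 0.12 (edgeR).

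**Figure D2:**
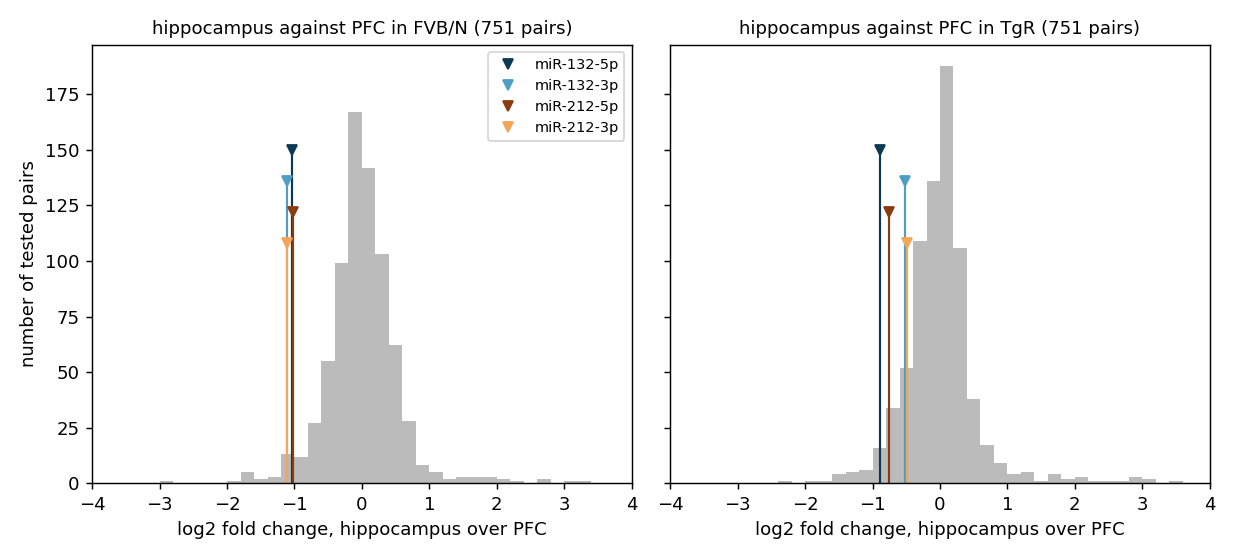
Distribution of the log2 fold change of hippocampus over PFC (horizontal axis) for the 751 tested pairs, as the number of pairs in bins (vertical axis), in FVB/N (left) and TgR mice (right), with vertical lines for the 4 arms. In FVB/N mice the arms lie together between -1.11 and -1.02, and in TgR mice they spread from -0.89 to -0.49.

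Cell type markers also differed between the regions. The 2 oligodendrocyte markers, miR-219a-2-3p and miR-338-3p, summed to 904 to 1354 CPM in FVB/N hippocampus against 373 to 557 CPM in FVB/N PFC, and to 1313 to 2097 CPM against 401 to 482 CPM in TgR mice. The 6 neuronal markers summed to 181709 to 225958 CPM in FVB/N hippocampus and 208712 to 274117 CPM in FVB/N PFC, which overlap, and to 175046 to 204366 CPM and 216732 to 281928 CPM in TgR mice, which do not. miR-128-3p was the neuronal marker that was lower in TgR hippocampus (log2 fold change -0.72, adjusted p = 0.020, edgeR), while miR-218-5p was higher in FVB/N hippocampus than in PFC (0.65, adjusted p = 0.029, edgeR). The most abundant of the 6, miR-128-3p, weighs most in the sums, with means of 97200 CPM in TgR hippocampus and 159756 CPM in TgR PFC. In TgR mice miR-124-3p (0.27) and miR-218-5p (0.13) had log2 fold changes above 0 without passing, and the other markers lay below 0. The median over the 6 was -0.063, beside 0.017 over all tested pairs. In TgR mice 6 of the 8 choroid plexus and ciliated cell markers were higher in the hippocampus than in the PFC, where they summed to 667 to 953 CPM (3.86% of all tested pairs were higher). There 3 of the 5 blood cell markers were lower than in the PFC, where they summed to 1328 to 2282 CPM (4.13% of all tested pairs were lower). The part of these markers in the regional difference of miR-132 and miR-212 was not tested. In tissue RNA, fewer cells of a type and less of the miRNA per cell cannot be told apart.

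TgR and FVB/N mice were compared within each region, with a separate fit of the libraries of that region, to ask whether mice with an excess of AChE-R had other levels of miR-132, which binds AChE mRNA, and of its neighbour miR-212. In the hippocampus none of the 4 arms passed the threshold in edgeR or DESeq2, and 0 of the 4 had an unadjusted p under 0.05 in edgeR. The log2 fold change was 0.32 for miR-132-3p (standard error 0.18, 95% interval -0.094 to 0.72, adjusted p = 0.38, edgeR). It was 0.24 for miR-132-5p (95% interval -0.22 to 0.70), 0.35 for miR-212-3p (95% interval -0.20 to 0.90) and 0.29 for miR-212-5p (95% interval -0.093 to 0.67), with adjusted p of 0.54, 0.46 and 0.38 (edgeR). Without TgR hippocampus replicate 2 these values were smaller, at 0.096 for miR-132-3p, 0.053 for miR-132-5p, 0.023 for miR-212-3p and 0.14 for miR-212-5p. The intervals leave room for an increase of about 0.7 to 0.9 on the log2 scale, so levels that are equal between genotypes were not shown. In this region 3.44% of 726 pairs passed, 17.5% had an unadjusted p under 0.05 and 24.7% had groups that did not overlap, against 0 of the 4 arms for each.

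TgR hippocampus replicate 2 was above all FVB/N hippocampal libraries for each of the 4 arms, whereas TgR replicate 3 lay inside the FVB/N range for each of them. TgR replicate 1 was just above that range for the 3p arms and inside it for the 5p arms. Replicate 2 was also the TgR hippocampal library with the lowest summed choroid plexus and ciliated cell markers, at 1613 CPM against 5867 CPM in replicate 1 and 4904 CPM in replicate 3. The part of those markers in the levels of the 4 arms was not tested.

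In the PFC the genotypes also overlapped for each of the 4 arms, and 0 of the 4 passed the threshold in edgeR or DESeq2 or had an unadjusted p under 0.05 in edgeR. The log2 fold change of TgR over FVB/N was -0.30 for miR-132-3p (95% interval -0.67 to 0.067) and -0.29 for miR-212-3p (95% interval -0.98 to 0.39). For miR-132-5p it was 0.066 (95% interval -0.22 to 0.35) and for miR-212-5p 0.0074 (95% interval -0.41 to 0.43). All 4 had an adjusted p of 1.00 (edgeR). Without FVB/N PFC replicate 1 the value was -0.18 for miR-132-3p, 0.17 for miR-212-3p, -0.019 for miR-132-5p and -0.20 for miR-212-5p. In this region 0.137% of 730 pairs passed, a single pair, 2.60% had an unadjusted p under 0.05 and 5.07% had groups that did not overlap.

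Whether the genotype effect differed between the regions was tested as an interaction over all 13 libraries. For miR-132-3p the effect in the hippocampus exceeded that in the PFC by 0.59 on the log2 scale (standard error 0.25, 95% interval 0.053 to 1.13), which is the same quantity as the difference between the regional effects of TgR and FVB/N mice. Its unadjusted p of 0.033 did not hold after adjustment (adjusted p = 0.47, edgeR), and without TgR hippocampus replicate 2 the difference was 0.39. The seed partner miR-212-3p had a value of 0.62 with a wider 95% interval of -0.26 to 1.49 (adjusted p = 0.80, edgeR), which was 0.22 without FVB/N PFC replicate 1 and 0.31 without TgR hippocampus replicate 2. The 5p arms stood at 0.15 (95% interval -0.41 to 0.70) and 0.25 (95% interval -0.35 to 0.86) for miR-132-5p and miR-212-5p (adjusted p = 0.97 and 0.93, edgeR). Of the 751 pairs, 0.533% passed and 8.12% had an unadjusted p under 0.05, against 0 and 1 of the 4 arms. The regional difference of the 3p arms, past the threshold in FVB/N mice and not in TgR mice, was therefore not shown to differ between the genotypes.

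**Figure D3:**
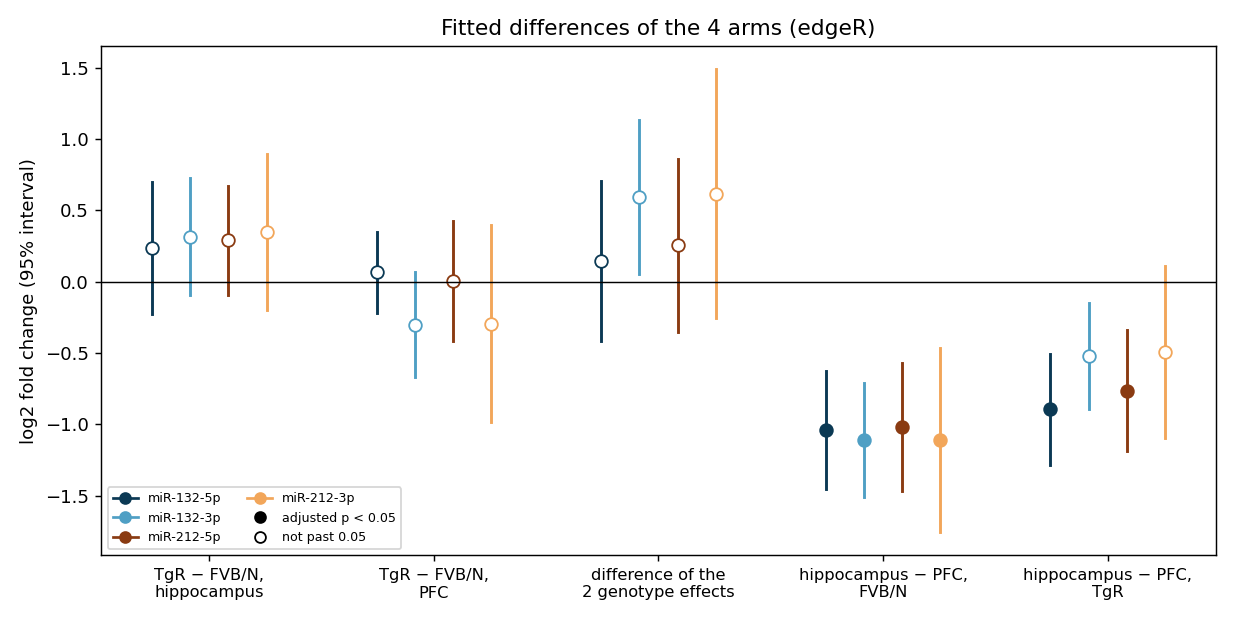
Log2 fold change of each arm with its 95% interval (vertical axis) for the genotype comparisons, their difference and the regional comparisons (horizontal axis), from the edgeR fits, with filled points where the adjusted p passed the threshold. The regional differences in FVB/N mice lie near -1 with intervals below 0, and each interval of the genotype comparisons crosses 0.

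Ratios between arms were taken within each library, where scaling has no effect. For miR-132 the 5p arm exceeded the 3p arm in 13 of 13 libraries, by 2.63-fold on average, the log2 ratio of 3p to 5p ranging from -1.84 to -0.86. For miR-212 the excess of the 5p arm was larger, 14.8-fold on average, with a log2 ratio of 3p to 5p from -4.54 to -2.56. The value of -2.56 came from FVB/N PFC replicate 1 and stood apart from the other libraries. Both hairpins therefore gave more counts for the arm without the shared seed. Between the hairpins, miR-132-3p exceeded miR-212-3p by 20.9-fold and miR-132-5p exceeded miR-212-5p by 3.71-fold on average.

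No difference between groups in these ratios passed its test. For miR-132-3p to miR-132-5p the log2 ratio was -1.32 ± 0.18 in FVB/N hippocampus, -1.27 ± 0.093 in TgR hippocampus and -1.27 ± 0.37 in FVB/N PFC (SD, n = 3 each). It was -1.65 ± 0.16 in TgR PFC (SD, n = 4), the lowest group, 0.38 below FVB/N PFC (exact 2-sided permutation test, p = 0.14). Without FVB/N PFC replicate 1 this difference was -0.18. Of the 12 exact permutation tests made on 4 ratios, for genotype in each region and for region within genotype, this p was the smallest, and all 12 had an adjusted p of 1. With 3 libraries against 3 an exact permutation test cannot go below p = 0.1. Within TgR mice the log2 ratio of miR-132-3p to miR-132-5p was 0.38 higher in the hippocampus than in the PFC, and within FVB/N mice the same difference was -0.057 (exact permutation p = 0.26 for region). The log2 ratio of miR-132-3p to miR-212-3p had, of the 4 ratios, group means that lay closest together, at 4.37 ± 0.24 in FVB/N hippocampus, 4.36 ± 0.14 in TgR hippocampus, 4.45 ± 0.43 in FVB/N PFC (SD, n = 3 each) and 4.37 ± 0.075 in TgR PFC (SD, n = 4). The 3p arms are identical over their first 9 bases, and whether reads of one could be counted for the other cannot be told from the deposited counts.

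**Figure D4:**
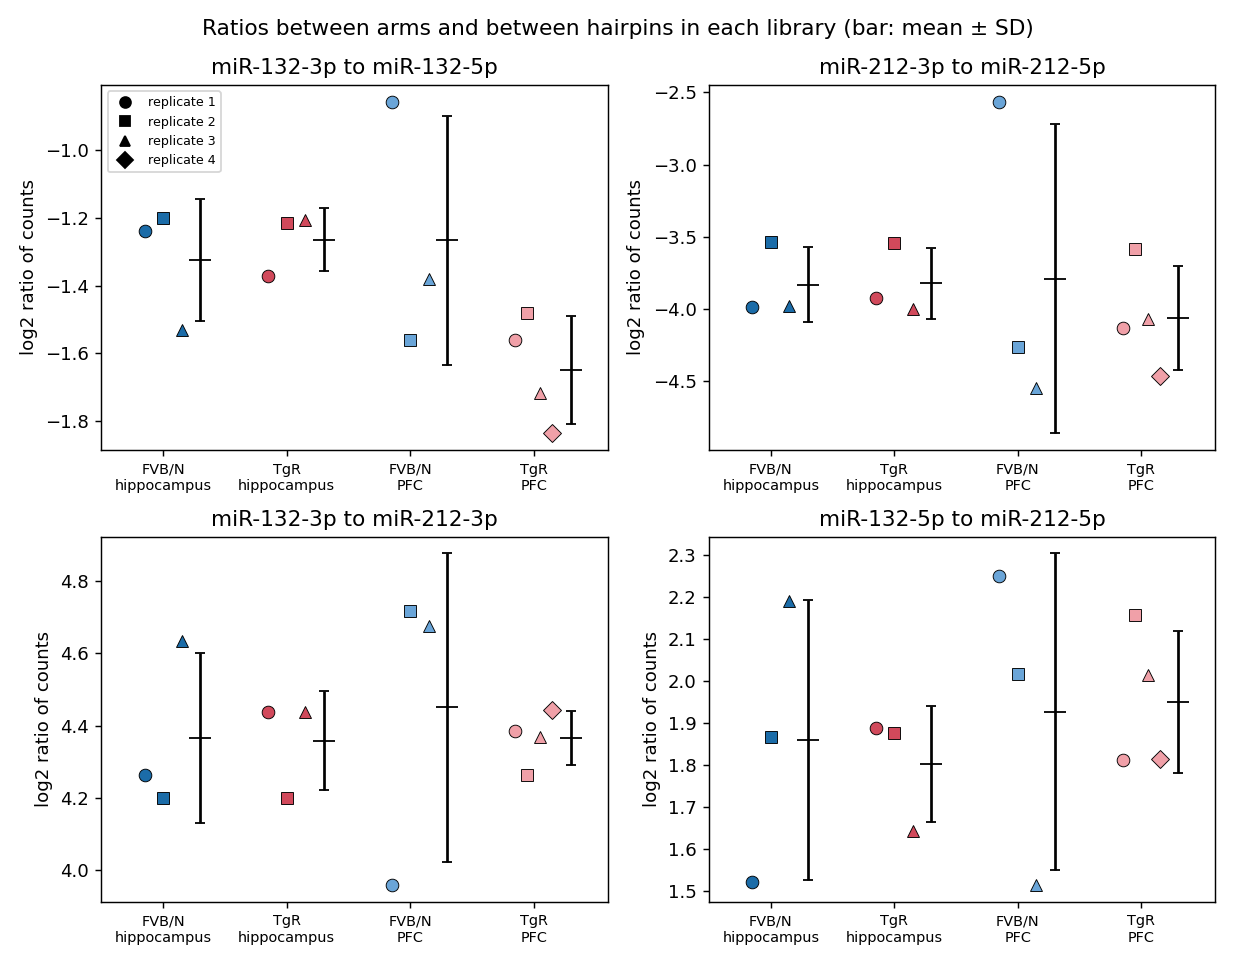
Log2 ratio within each library (vertical axis) of the 3p to the 5p arm of each hairpin and of miR-132 to miR-212 for each arm, by group, with 1 point per library and a bar for the mean ± SD. The ratio of the 3p to the 5p arm is below 0 in all 13 libraries for both hairpins, and FVB/N PFC replicate 1 stands apart at -2.56 for miR-212.

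Libraries of 1 region were also compared for whether the arms varied together, in 6 relations over log2 CPM. In the hippocampus miR-132-3p and miR-132-5p had Pearson's r = 0.92 (n = 6, exact permutation p = 0.0056, adjusted p = 0.033) and Spearman's rho = 0.89 (exact permutation p = 0.033, adjusted p = 0.20). Without TgR replicate 2 and FVB/N replicate 2, the libraries farthest from the median, r was 0.95 over 4 libraries, and with each library set against its group mean it was 0.91. The adjusted p was at or above the threshold without FVB/N replicate 2 (0.050, exact permutation) or without TgR replicate 2 (0.067, exact permutation). In the PFC the same arms had r = -0.26 and rho = 0 (n = 7, exact permutation p = 0.58 and 1). The difference between the correlations of the regions was not tested.

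Between the hairpins, miR-132-3p and miR-212-3p had r = 0.82 in the PFC (n = 7, exact permutation p = 0.022, adjusted p = 0.045) and rho = 0.61 (exact permutation p = 0.17, adjusted p = 0.25). This fell to r = 0.32 over 5 libraries without TgR PFC replicate 4 and FVB/N PFC replicate 1, those farthest from the median. With each library set against its group mean, r was 0.89. In the hippocampus r was 0.88 and rho 0.49 (n = 6, exact permutation p = 0.097 and 0.36, adjusted p = 0.13 and 0.43), and r was 0.025 without TgR replicate 2 and FVB/N replicate 2. The arms of miR-212 had r = -0.91 in the PFC (n = 7, exact permutation p = 0.011, adjusted p = 0.033) and rho = -0.64 (exact permutation p = 0.14, adjusted p = 0.25), but r = -0.19 without FVB/N PFC replicate 1 and TgR PFC replicate 2. In the hippocampus they had r = 0.78 and rho = 0.77 (n = 6, exact permutation p = 0.11 and 0.10, adjusted p = 0.13 and 0.25), and r = 0.17 without TgR replicate 2 and FVB/N replicate 3. With each library set against its group mean, the miR-212 arms had r = -0.92 in the PFC and r = 0.72 in the hippocampus. The libraries left out were those farthest from the median of the first arm, which narrows the range. The fall in r therefore does not decide what these relations rest on.

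**Figure D5:**
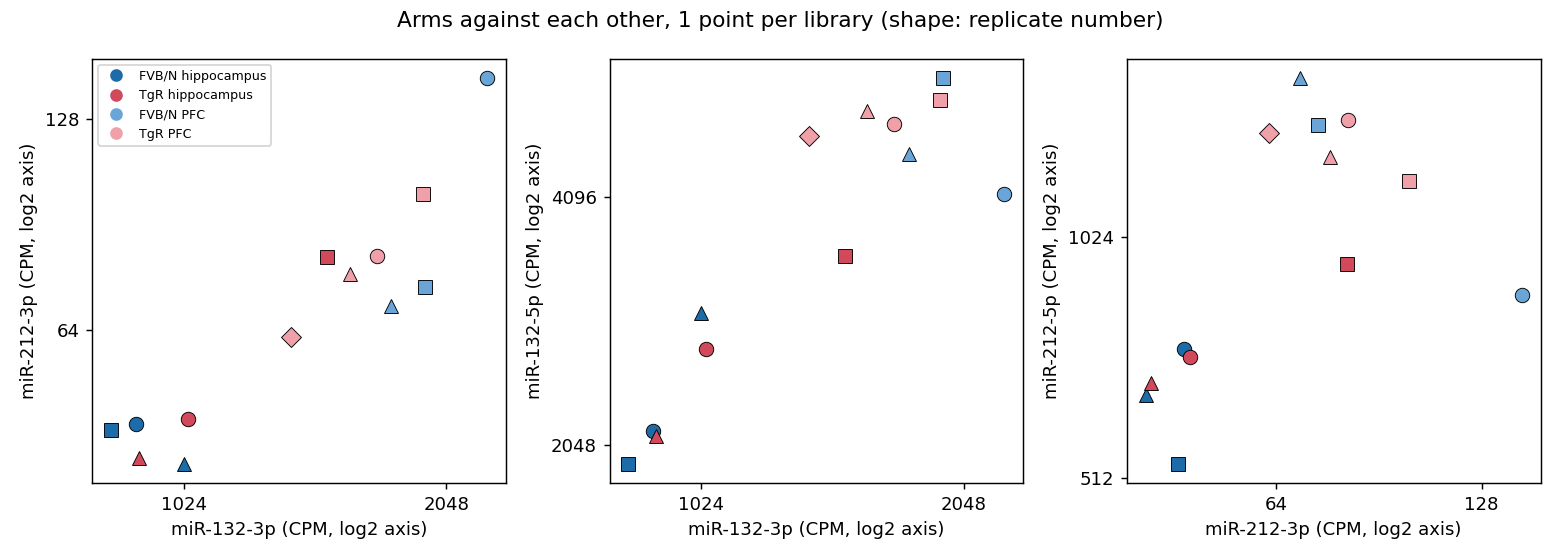
Levels of the arms of the 3 relations against each other (CPM, log2 axes, 1 panel a relation), with 1 point per library, coloured by group and shaped by replicate number. In the PFC, FVB/N PFC replicate 1 lies away from the other libraries in the relation of miR-212-3p with miR-212-5p, where r is -0.91 over the 7 libraries and -0.19 without it and TgR PFC replicate 2.

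Other miRNAs known to respond to neuronal activity or to act on synapses were read from a list of 20, all of which were tested. None of the 20 passed in either genotype comparison or in the interaction. Of all tested pairs, 3.44% passed for genotype in hippocampus, 0.137% in PFC and 0.533% in the interaction, so few calls were to be found in any list. In FVB/N mice 2 were higher in the hippocampus than in the PFC (3.20% of all tested pairs were) and 0 were lower (2.13% were). The 2 higher ones were miR-218-5p, given above as a neuronal marker, and miR-181a-5p, known for acting on AMPA receptor levels (log2 fold change 0.41, adjusted p = 0.043, edgeR). In TgR mice 1 was lower, miR-379-5p of the activity-regulated cluster that also holds miR-134 (log2 fold change -0.63, adjusted p = 0.020, edgeR), beside 4.13% of all tested pairs, and 0 were higher, beside 3.86%. The median log2 fold change of the list between the regions was -0.15 in FVB/N and -0.083 in TgR mice, beside -0.019 and 0.017 over all 751 pairs and about -1 for the 4 arms in FVB/N mice. miR-125b-5p, the other miRNA that the study names as binding AChE-R mRNA, passed in none of the 5 comparisons, with log2 fold changes between -0.13 and 0.20. The study, which used DESeq2, counts miR-125b, with no arm named, among the miRNAs changed in TgR hippocampus. Between the genotypes in hippocampus, miR-125b-5p was here at 0.049 (adjusted p = 0.84, edgeR).

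The miRNAs whose pattern was most like that of the 3p arms were found from the root mean square difference of log2 CPM, centred on its mean, over the 13 libraries and 645 mature miRNAs. As the closest to miR-132-3p came its seed partner miR-212-3p (0.205 log2 units), and the same pair was closest when the search began from miR-212-3p. After it came miR-24-2-5p (0.236), then the other arm of its own hairpin, miR-132-5p (0.248), miR-218-1-3p (0.254), which was counted at only a few CPM, and miR-135a-5p (0.268). For miR-212-3p the next were miR-154-5p and miR-664-3p (0.249 each) and miR-23a-3p (0.310), while miR-212-5p was 94th in order at 0.490.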

How the data were processed

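Small RNA (300 ng of total RNA, RIN 8.6 to 9.3) was sequenced from the hippocampus and PFC of FVB/N and TgR mice. Per the study's methods, the authors checked the reads with FastQC and aligned them to miRBase with miRExpress at default settings, and the deposited values are raw read counts for each hairpin and mature miRNA, without normalization. Pairs that a library does not list were set to 0. Groups came from the sample labels, and the libraries of a group came from separate mice. Whether 1 mouse gave both regions is not given in the sources used here, so the regional tests treat them as separate. No library differed from another of its group by as little as sampling noise.

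Counts were tested with edgeR 4.0.16 (quasi-likelihood, TMM, filterByExpr with a minimum count of 10, Benjamini-Hochberg over all tested pairs, threshold 0.05) in R 4.3.3. Genotype was tested in separate fits for each region, and region and interaction in 1 fit of 13 libraries. DESeq2 1.42.0, other scalings, no filter, 1 row per mature miRNA, other sets of libraries in the fit, a replicate block and leaving out each library were the alternatives. Ratios, with 0.5 added to counts, and correlations were given exact permutation tests. The edgeR step was tested on simulated data. The 4 arms were named whatever their values. List members were named where they passed, and the 3 miRNAs outside the family most like each 3p arm were named. The members and lists were chosen with earlier results of these data known. Floors and intervals cover counting error or the spread of libraries only.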

Additional observations from a re-analysis of the deposited data

How the results depend on the processing

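Of the values recomputed under alternatives, 442 kept their direction and their side of the threshold (for counts, stayed within 1.5 times), 29 lost it, 3 gained it, 29 changed sign and 23 counts moved further. In FVB/N mice the lower hippocampal level passed in 13 of 13 alternatives for miR-132-3p (-1.20 to -1.05), miR-132-5p (-1.24 to -0.93) and miR-212-5p (-1.28 to -0.84). For miR-212-3p it missed with library size only (-1.16), 1 row per mature miRNA (-1.11) and FVB/N libraries alone (-1.10), and leaving out single libraries gave -1.33 to -0.72. The TgR regional values over left-out libraries were -0.73 to -0.37 for miR-132-3p, -1.06 to -0.72 for miR-132-5p, -0.81 to -0.31 for miR-212-3p and -0.89 to -0.65 for miR-212-5p. In hippocampus no arm passed for genotype in 13 of 13 alternatives, and leaving out single libraries gave 0.096 to 0.45 for miR-132-3p, 0.053 to 0.40 for miR-132-5p, 0.023 to 0.52 for miR-212-3p and 0.14 to 0.37 for miR-212-5p, the lowest values being those without TgR replicate 2.

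The replicate numbers, taken from the sample titles, were not treated as pairs. Deviations of same-numbered libraries from their group means correlated between -0.15 and 0.38, across genotypes and across regions. Libraries with different numbers were not compared in this way, so these values do not decide whether the numbers mark pairs. The deposited tables number FVB/N PFC replicates 2 and 3 otherwise than the titles do, replicate 1 alike, and whether 1 mouse gave both regions was not tested by this. With the replicate block, miR-132-3p passed between regions in TgR mice (-0.63) and miR-212-5p did not (-0.76), and the count of hippocampal genotype calls was 9 and that of interaction calls 10. The interaction of miR-212-3p was 0.37 with the block.

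The counts of calls depended on the tool. Genotype calls in hippocampus, 25, became 56 in DESeq2 and 63 without a filter, and 1 to 28 on leaving out a library (1 without FVB/N replicate 3, 12 without FVB/N replicate 1, 9 without TgR replicate 3). Interaction calls, 4, became 23 and 13 (2 to 8, with 8 without TgR hippocampus replicate 2, and 2 without FVB/N hippocampus replicate 3, TgR hippocampus replicate 1 or 3, FVB/N PFC replicate 1 or TgR PFC replicate 4). Regional calls in FVB/N mice, 40, became 84, 69 and, with FVB/N libraries alone, 24 (23 to 60, with 23 without hippocampus replicate 2). In TgR mice regional calls, 60, became 77 in DESeq2, 71 without a filter and 83 with TgR libraries alone. On leaving out a library they ranged from 28 to 62 (28 and 31 without hippocampus replicate 1 and 3, 39 and 29 without PFC replicate 1 and 3). The causes were not tested.

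In the PFC, miR-212-5p changed sign between genotypes in DESeq2 (-0.0016), with library size only (-0.0041) and without a filter (-0.0074). Leaving out a library gave -0.20 to 0.18 for it, -0.019 to 0.20 for miR-132-5p, -0.42 to -0.18 for miR-132-3p and -0.49 to 0.17 for miR-212-3p. The interaction ranged from -0.010 to 0.37 for miR-132-5p, 0.39 to 0.80 for miR-132-3p, 0.22 to 0.86 for miR-212-3p and 0.11 to 0.51 for miR-212-5p. Among log2 ratios, that of miR-132-3p to miR-132-5p ranged from -0.045 to 0.12 for genotype in hippocampus, -0.53 to -0.18 in PFC and 0.089 to 0.27 between regions. That of miR-212-3p to miR-212-5p ranged from -0.13 to 0.16 in hippocampus, -0.65 to 0.34 in PFC and -0.088 to 0.41 between regions. That of miR-132-3p to miR-212-3p ranged from -0.091 to 0.13, -0.33 to 0.047 and -0.17 to 0.022, and that of miR-132-5p to miR-212-5p from -0.23 to 0.11 and -0.18 to 0.18. With library size only, r between the arms in PFC was 0.42 for miR-132 and -0.75 for miR-212. On leaving out a library, r of miR-132-3p with miR-212-3p was -0.14 to 0.95 in hippocampus and 0.65 to 0.91 in PFC, that of the miR-132 arms 0.90 to 0.98 and -0.50 to 0.53, and that of the miR-212 arms 0.17 to 0.99 and -0.96 to -0.64. The call was kept in 5 of 7 alternatives for the miR-132 arms in hippocampus, and in PFC in 2 of 8 for miR-132-3p with miR-212-3p and 3 of 8 for the miR-212 arms. Depth was not thinned, and the groups hold 3 or 4 libraries.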
